A study of Mus musculus with 10 samples.

Results

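The suppressor of cytokine signaling (SOCS) family was described at the RNA level in MAF9 cells, mouse bone marrow cells of C57BL/6 genotype that were transduced with the leukemia fusion gene MLL-AF9. Its members were chosen by gene symbol, with earlier results of these data known. They are the rows Socs1, Socs2, Socs3, Socs4, Socs5, Socs6, Socs7 and Cish of a table of read counts, which makes 8 genes of 24015. The culture medium held 15% fetal bovine serum and interleukin-3 (IL-3) at 10 ng/ml, and cells were treated for 4 days with DMSO as control or with 1 of 4 inhibitors, each dosed at its IC50. MM-401 blocks the binding of the histone methyltransferase MLL1 to WDR5, EPZ5676 inhibits the histone methyltransferase DOT1L, MI-2-2 blocks MENIN, and iBET inhibits BET bromodomain proteins. Each of the 5 conditions had 2 libraries, named biological duplicates by the submitters, and all 10 libraries, the DMSO controls included, carry the fusion gene and the added IL-3. The cells are a transduced culture held in 1 growth factor, and whether the duplicates came from separate transductions is not stated, so the spread between them may be partly technical.

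IL-3 and related cytokines act through receptors without kinase activity of their own, which carry JAK kinases that phosphorylate STAT transcription factors, chiefly STAT5 for IL-3. SOCS genes are among the genes that activated STATs switch on, and their proteins close a negative feedback loop. Each protein joins an SH2 domain, which binds phosphotyrosine, to a SOCS box, which recruits an elongin and cullin ubiquitin ligase. SOCS1 and SOCS3 also carry a short region that blocks JAK catalysis, CISH and SOCS2 bind receptor tails and are classical STAT5 targets, and SOCS4 to SOCS7 are better known from growth factor and insulin receptor signaling.

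Promoter sequence is shown for the 3 members with a RefSeq promoter entry (GRCm38.p6) that holds a match to a STAT or interferon-type motif, since feedback through STATs is what the family is known for. The motifs were chosen after the sequences and the expression values had been seen. An entry runs from 250 bases before to 50 bases after the start site, and 4 of the 8 members had one (Cish, Socs1, Socs3 and Socs4). Sequences read 5′ to 3′ on the strand of the gene, and capitals mark the matches. The Cish window is chr9:107296654-107296683 on the plus strand, inside the first exon of the longest annotated Cish transcript. The Socs3 window is chr11:117969452-117969616 on the minus strand, in an intron of a longer noncoding Socs3 transcript and in no annotated exon of the gene. The Socs1 window is chr16:10785537-10785786 on the minus strand and ends at the base before the annotated gene.
Cish: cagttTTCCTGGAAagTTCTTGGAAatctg
Socs3: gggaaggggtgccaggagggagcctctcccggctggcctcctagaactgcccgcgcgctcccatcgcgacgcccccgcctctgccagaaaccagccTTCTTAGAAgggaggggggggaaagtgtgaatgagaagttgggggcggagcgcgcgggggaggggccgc
Socs1: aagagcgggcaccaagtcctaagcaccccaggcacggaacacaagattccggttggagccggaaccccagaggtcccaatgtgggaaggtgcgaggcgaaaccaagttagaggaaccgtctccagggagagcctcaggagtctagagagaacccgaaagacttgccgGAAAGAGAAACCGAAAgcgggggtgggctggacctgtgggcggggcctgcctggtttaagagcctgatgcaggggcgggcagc
The STAT core TTCNNNGAA, which reads the same on both strands, began at bases 1 and 12 after the RefSeq start of Cish and at base -154 of Socs3. It was present in 8.3% of 32851 promoter entries of the same length, and 0.457% held 2 or more. The motif GAAANNGAAA, of the kind bound by interferon regulatory factors and searched on both strands, began at bases -83 and -77 of Socs1 in overlapping copies and was present in 3.44% of entries. Neither motif matched in the Socs4 entry. A match describes letters in this window and was not tested as a binding site.

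Library totals lay between 20394762 and 29473127 counted reads, and the members had between 91 (Socs3) and 6248 (Cish) reads in a library. Values below are CPM, read counts set to a common library size, with TMM scaling for library composition, unless given per length. The libraries of 2 conditions did not overlap for 37.3% (MM-401 against DMSO) to 79.1% (MI-2-2 against iBET) of all tested genes. The DMSO libraries stood apart from each other. In DMSO, 21.2% of tested genes differed more than 2-fold between the libraries, against 5.38% to 7.29% in the other conditions. DMSO replicate 2 held 3630 reads of 4 Y-linked genes and 4.76 CPM of Xist, while the other 9 libraries held 0 to 2 Y-linked reads and 928 to 3050 CPM of Xist. These values have the pattern of male cells in DMSO replicate 2 and of female cells in the other 9 libraries. How DMSO replicate 2 came to differ in origin is not given in the sources used here. Member calls against DMSO are therefore also given without each DMSO library. So are the calls with EPZ5676, MI-2-2 and iBET that this changed among the other genes named. The members are also set against MM-401. All 10 myeloid and leukemia progenitor markers, Ptprc, Spi1, Mpo and Hoxa9 among them, had reads in every library. Pax5, Ebf1, Cd3e, Cd8a, Hba-a1, Hbb-b1, Tpsb2 and Col1a2, which define lymphoid, erythroid, mast and stromal cells, had none, while other genes of the same marker lists did, such as Pecam1 (6.64 to 43.7 CPM), Col1a1 (0 to 18.9 CPM), Mcpt8 (3.4 to 14.4 CPM) and Cd79b (0.115 to 7.11 CPM). RNA was measured in bulk, so fewer cells of a type and less RNA per cell cannot be told apart.

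All 8 members were expressed and passed the filter on low counts. Per length (RPKM, reads relative to exon length and library total), Cish was highest, with a median of 21.5 RPKM over the 10 libraries (9.39 to 41.2). It was followed by Socs7 at 6.64 RPKM (3.91 to 10.1), Socs3 at 6.13 RPKM (1.54 to 12.0), Socs4 at 5.93 RPKM (5.62 to 7.17) and Socs1 at 4.02 RPKM (2.46 to 6.98). Socs6 at 2.29 RPKM (2.14 to 2.75), Socs5 at 2.19 RPKM (1.58 to 2.88) and Socs2 at 1.15 RPKM (0.842 to 4.47) were the lowest. Every member overlapped its neighbor in this order over the libraries. DMSO and MM-401 gave the same order by mean RPKM, with Socs3 at rank 6 and Socs2 at rank 8. Socs3 stood at rank 2 with EPZ5676 and MI-2-2 and at rank 3 with iBET, and Socs2 stood at rank 6 with iBET. These levels use the exons of all transcripts joined, and with the length of the longest transcript Socs3 took rank 2 and Socs7 rank 3.

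**Figure D1:**
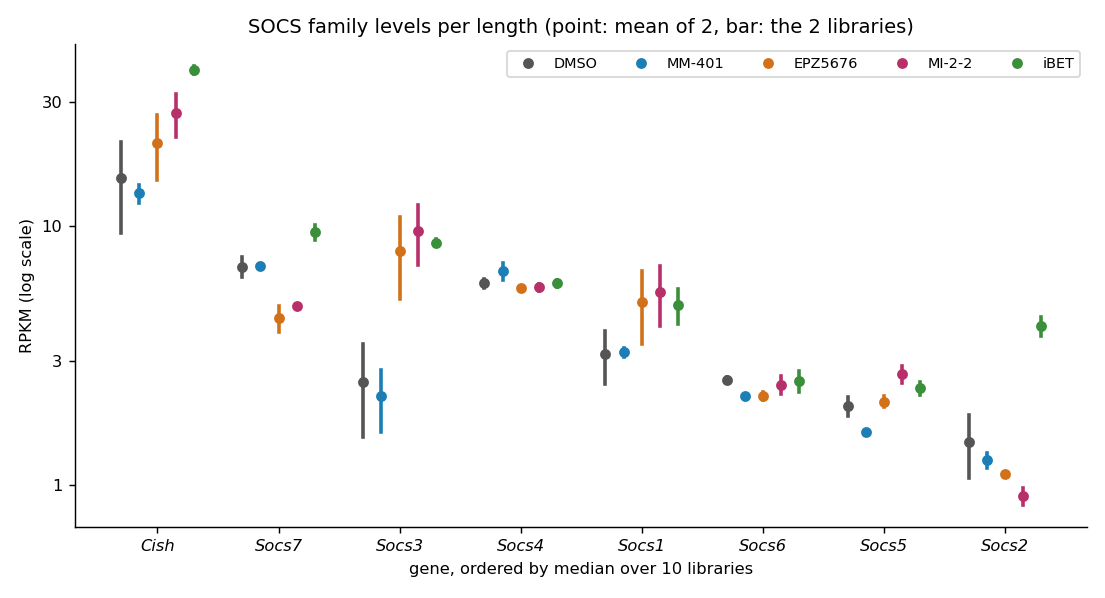
Levels of the 8 SOCS family members per length (RPKM, log axis) in each condition; points are means of 2 libraries and bars join the 2 libraries. Cish lies highest in every condition, Socs3 moves from rank 6 with DMSO to rank 2 with EPZ5676 and MI-2-2, and Socs2 leaves rank 8 with iBET alone.

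Over the 5 conditions, 5 of the 8 members differed in the quasi-likelihood test of edgeR, adjusted by the Benjamini-Hochberg method over all 12971 genes tested, where 50.9% of all tested genes did. They were Socs2 (edgeR adjusted p = 0.00259), Socs7 (0.00698), Socs3 (0.0122), Cish (0.0266) and Socs5 (0.0345). Socs1 (edgeR adjusted p = 0.137), Socs6 (0.609) and Socs4 (0.722) did not pass. Among the 4 inhibitors alone, a test in which the DMSO means take no part, 5 members passed, and 46.5% of all genes did. These were again Socs2 (edgeR adjusted p = 0.00216), Socs7 (0.00504), Socs3 (0.0246), Socs5 (0.0287) and Cish (0.0364). Neither share of members stands far from that of all genes. Leaving out 1 library at a time left between 3 and 5 members in the first test and between 2 and 5 in the second, with 2 in the second without either MM-401 or either iBET library.

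With MM-401, none of the 8 members differed from DMSO in edgeR's quasi-likelihood test, as for all genes (0.0% called). None of the members passed an unadjusted p of 0.05 there either, against 1450 of all genes. DESeq2 also called 0 members and 297 of all genes. In the fit without DMSO replicate 1, edgeR called 1368 of 13355 genes (10.2%) and again 0 members. The log2 fold changes of the members ran from -0.31 ± 0.19 (SE) for Socs5 to 0.18 ± 0.13 for Socs4, and the widest error was 0.47, for Socs3. They turned sign with the DMSO library left out for Socs1, Socs2, Socs3, Socs7 and Cish. Socs3 was at 0.50 without DMSO replicate 1 and -0.62 without DMSO replicate 2, Cish at 0.48 and -0.61, and Socs2 at -0.59 and 0.27. With EPZ5676, 2 of 8 members differed from DMSO, Socs3 upward and Socs7 downward, where 38.1% of all genes were called (18.7% higher and 19.4% lower). With MI-2-2, 2 members rose, Socs3 and Socs5, where 41.4% of all genes were called (20.2% higher and 21.2% lower). With iBET, 3 members rose, Socs2, Socs3 and Cish, where 13.9% of all genes were called (6.38% higher and 7.54% lower). The median log2 fold change of the 8 members under EPZ5676, MI-2-2 and iBET was 0.17, 0.33 and 0.57, beside -0.06, -0.05 and -0.04 over all tested genes. These 4 comparisons share the DMSO libraries.

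Against MM-401 in place of DMSO, EPZ5676 again gave 2 called members, Socs3 upward and Socs7 downward (33.3% of all genes called, 16.7% higher and 16.6% lower). MI-2-2 gave 3, all upward, Socs3, Socs5 and Cish (35.7% of all genes called, 18.0% higher and 17.6% lower). iBET gave 3, all upward, Socs2, Socs3 and Cish (11.4% of all genes called, 5.48% higher and 5.96% lower). Between EPZ5676 and MI-2-2, edgeR called 0 of 8 members and 2 of all genes (0.0154%, with 0.00771% in each direction), with 0 members and 937 genes at an unadjusted p under 0.05 and 0 members and 155 genes called by DESeq2. The members' log2 fold changes between these inhibitors lay between -0.37 ± 0.36 (SE, Cish) and 0.30 ± 0.29 (Socs2), errors wide enough that differences of this size could not be told from replicate spread. iBET was then set directly against the DOT1L and MENIN inhibitors, which uses no DMSO mean. Socs2 and Socs7 were lower with EPZ5676 than with iBET (2 of 8 members called, against 37.6% of all genes, 19.1% higher and 18.5% lower) and lower with MI-2-2 than with iBET (2 of 8, against 38.8% of all genes, 19.7% higher and 19.1% lower). Those 4 differences alone, of 19 member calls in the 10 comparisons, passed in all 17 alternatives run.

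**Figure D2:**
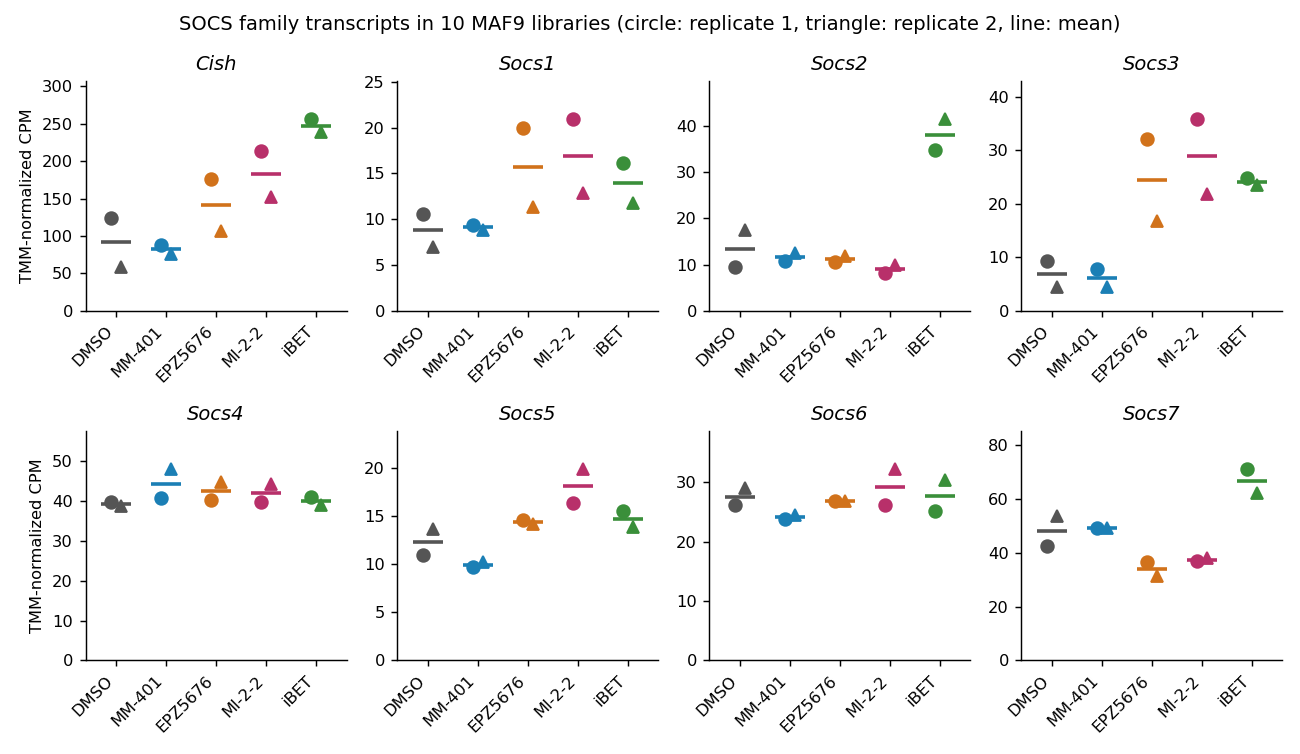
TMM-scaled CPM of each member in the 10 libraries (circles replicate 1, triangles replicate 2, lines means of 2). Socs3 lies above all DMSO and MM-401 libraries with EPZ5676, MI-2-2 and iBET, and Socs2 stands at 34.7 and 41.4 CPM with iBET against 17.4 CPM or less elsewhere.

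Socs3 encodes an inhibitor of JAKs bound to the receptors of interleukin-6 and granulocyte colony-stimulating factor. It had 9.31 and 4.36 CPM in the DMSO libraries and 7.74 and 4.54 CPM with MM-401. It reached 32.1 and 16.8 CPM with EPZ5676, 35.8 and 21.9 CPM with MI-2-2 and 24.8 and 23.5 CPM with iBET. All 6 of these libraries lay above all 4 of DMSO and MM-401. Socs3 rose 3.56-fold with EPZ5676 over DMSO (log2 fold change 1.83 ± 0.47 SE, edgeR adjusted p = 0.0186), 4.20-fold with MI-2-2 (2.07 ± 0.48, 0.0107) and 3.51-fold with iBET (1.81 ± 0.47, 0.0426). It had the widest range of condition means of the family, 2.22 on the log2 scale. The DMSO libraries differed by 1.09 on that scale. Without DMSO replicate 1 the log2 changes were 2.49, 2.73 and 2.47 for EPZ5676, MI-2-2 and iBET, and without DMSO replicate 2 they were 1.42 (edgeR adjusted p = 0.0598), 1.67 (0.0354) and 1.37 (0.0848). The EPZ5676 call was also lost without EPZ5676 replicate 1 (1.29, edgeR adjusted p = 0.108) and the MI-2-2 call without MI-2-2 replicate 1 (1.68, 0.0596). The iBET call was lost without either library of MM-401, MI-2-2 or iBET, with log2 changes of 1.78 to 1.85 and edgeR adjusted p from 0.0576 to 0.165.
Against MM-401, Socs3 rose by a log2 fold change of 1.99 with EPZ5676 (edgeR adjusted p = 0.0158), 2.23 with MI-2-2 (0.00986) and 1.97 with iBET (0.0371). Leaving out an MM-401 library ended the EPZ5676 and iBET calls, and leaving out MM-401 replicate 2 ended that for MI-2-2 (edgeR adjusted p = 0.0826). The EPZ5676 call was also lost without EPZ5676 replicate 1 (edgeR adjusted p = 0.0916), the MI-2-2 call without MI-2-2 replicate 1 (0.0549), and the iBET call without either library of MI-2-2 or iBET (0.0529 to 0.155). Over all 10 libraries its level was most like those of Rara (Pearson's r of log2 CPM 0.985), Klhl25 (0.979) and Bmf (0.977). These values describe libraries that share condition and replicate number. Rara encodes a retinoic acid receptor and had 20.6 to 32.5 CPM with DMSO or MM-401 and 78.6 to 123 CPM with the other inhibitors. Bmf encodes a BH3-only death protein and had 6.42 to 14.1 CPM and 20.6 to 45.6 CPM in the same groups of libraries.

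Socs1, whose product blocks JAKs downstream of the interferon receptors, was likewise highest with MI-2-2 and lowest with DMSO and MM-401, over a narrower range. It had 10.6 and 7.0 CPM with DMSO and 9.38 and 8.86 CPM with MM-401. With EPZ5676 it had 20.0 and 11.3 CPM, with MI-2-2 20.9 and 12.9 CPM, and with iBET 16.1 and 11.8 CPM. The 6 libraries of the last 3 inhibitors all exceeded the other 4, yet none of the differences from DMSO passed in the edgeR fit by condition. The log2 fold change over DMSO was 0.83 ± 0.36 (SE) with EPZ5676 (edgeR adjusted p = 0.105), 0.94 ± 0.36 with MI-2-2 (0.0696) and 0.67 ± 0.36 with iBET (0.246). Without DMSO replicate 1 these values were 1.17, 1.28 and 1.00, of which that for MI-2-2 passed (edgeR adjusted p = 0.0384), and without DMSO replicate 2 they were 0.60, 0.71 and 0.40. Of the 17 alternatives, Socs1 over DMSO passed in 1, 3 and 0 under EPZ5676, MI-2-2 and iBET.

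Socs2 encodes the feedback inhibitor best known from growth hormone signaling and is a STAT5 target. It had 9.42 and 17.4 CPM with DMSO, 10.7 and 12.4 CPM with MM-401, 10.6 and 11.9 CPM with EPZ5676, and 8.28 and 10.0 CPM with MI-2-2. With iBET it had 34.7 and 41.4 CPM, above the other 8 libraries, and the MI-2-2 libraries lay below those of MM-401 and EPZ5676. Between MI-2-2 and MM-401 (edgeR adjusted p = 0.394) or EPZ5676 (0.948), Socs2 was not called. Socs2 rose 2.85-fold with iBET over DMSO (log2 fold change 1.51 ± 0.29 SE, edgeR adjusted p = 0.0157) and by 1.73 on the log2 scale over MM-401 (0.0114). It was 3.38-fold lower with EPZ5676 than with iBET (-1.76 ± 0.29, edgeR adjusted p = 0.00296) and 4.16-fold lower with MI-2-2 than with iBET (-2.06 ± 0.29, 0.00176). Over the 17 alternatives these log2 values stayed between -1.90 and -1.63 for EPZ5676 and kept an edgeR or DESeq2 adjusted p of at most 0.026. The rise over DMSO was 1.14 (edgeR adjusted p = 0.00763) without DMSO replicate 1 and 2.01 (0.00209) without DMSO replicate 2. It did not pass without iBET replicate 1 (1.64, edgeR adjusted p = 0.0702) or without iBET replicate 2 (1.38, 0.104). The rise over MM-401 likewise failed when 1 library of either group was left out, with log2 changes of 1.60 to 1.85 and edgeR adjusted p from 0.054 to 0.0978.
With EPZ5676 and MI-2-2, Socs2 lay between the DMSO libraries or below them. The log2 fold change over DMSO was -0.25 ± 0.28 (SE) with EPZ5676 (edgeR adjusted p = 0.519) and -0.55 ± 0.29 with MI-2-2 (0.158). Without DMSO replicate 1 Socs2 fell by 0.62 with EPZ5676 (edgeR adjusted p = 0.0349) and by 0.92 with MI-2-2 (0.00655), and without DMSO replicate 2 the EPZ5676 value turned to 0.28. The genes most like Socs2 over the 10 libraries were Ifnar1 (r = 0.982), a chain of the type I interferon receptor, Brd2 (0.981), a BET protein, and Rnft1 (0.98). Brd2 had 557 and 574 CPM with iBET and 317 to 422 CPM in the other 8 libraries.

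Cish, the first family member to be identified and a STAT5 target, had 124 and 58.9 CPM with DMSO and 88.1 and 76.3 CPM with MM-401. It had 176 and 107 CPM with EPZ5676, 213 and 152 CPM with MI-2-2 and 256 and 239 CPM with iBET. The iBET libraries lay above all 8 others and the MI-2-2 libraries above those of DMSO and MM-401, while EPZ5676 and DMSO overlapped. Between iBET and EPZ5676 (edgeR adjusted p = 0.113) or MI-2-2 (0.356), Cish was not called. Cish rose 2.70-fold with iBET over DMSO (log2 fold change 1.43 ± 0.37 SE, edgeR adjusted p = 0.0403). Its values over DMSO were 0.99 ± 0.36 with MI-2-2 (edgeR adjusted p = 0.0592) and 0.62 ± 0.36 with EPZ5676 (0.203), neither past the threshold, and they passed in 4 and 2 of the 17 alternatives. The DMSO libraries differed by 1.08 on the log2 scale. Without DMSO replicate 1 the log2 change was 2.08 with iBET (edgeR adjusted p = 0.00451), 1.63 with MI-2-2 (0.00448) and 1.26 with EPZ5676 (0.0134), and all 3 passed. Without DMSO replicate 2 it was 0.99 with iBET (edgeR adjusted p = 0.0637), 0.59 with MI-2-2 (0.179) and 0.21 with EPZ5676, and none passed. The iBET call was also lost without either library of MM-401, MI-2-2 or iBET (log2 changes of 1.39 to 1.48, edgeR adjusted p from 0.0576 to 0.167).
Over MM-401, Cish rose by 1.15 on the log2 scale with MI-2-2 (edgeR adjusted p = 0.0412) and by 1.59 with iBET (0.0325). Both calls were lost without either library of MM-401, MI-2-2 or iBET, at log2 changes of 0.88 to 1.38 (edgeR adjusted p from 0.0685 to 0.194) and 1.49 to 1.70 (0.0502 to 0.204). Cish with EPZ5676 against MM-401 was 0.78 ± 0.36 (edgeR adjusted p = 0.131) and passed without DMSO replicate 1 (0.0344) or DMSO replicate 2 (0.0312), which entered that comparison only through the shared spread. Psmb9 (r = 0.98), an immunoproteasome subunit, Plcb3 (0.977), a phospholipase, and Dennd2c (0.974) were most like Cish over the 10 libraries. On the opposite strand, Gm17040 and Gm17041 overlap Cish in the annotation, and whether counting used strand is not given in the sources used here.

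**Figure D3:**
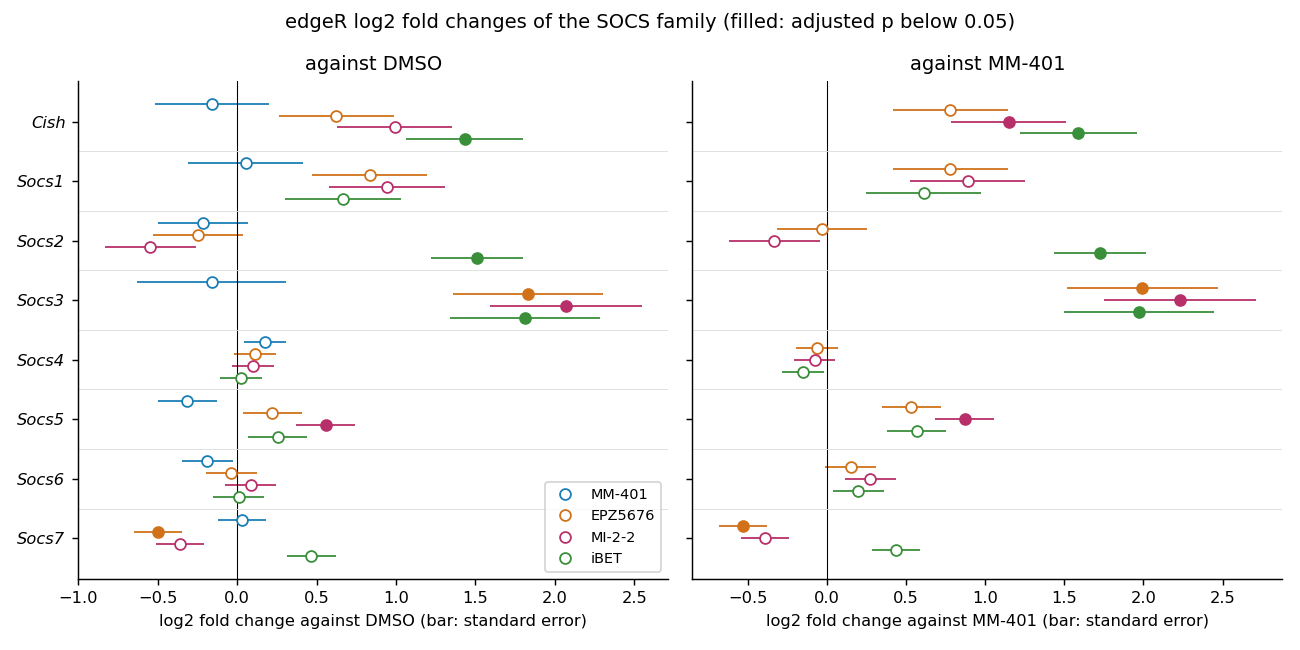
Log2 fold changes with standard errors from the edgeR fit of 10 libraries, against DMSO (left) and against MM-401 (right); filled points have an adjusted p below 0.05. Socs3 is near 2 with EPZ5676, MI-2-2 and iBET in both panels, and the MM-401 points against DMSO lie between -0.31 and 0.18.

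Socs7, which binds adaptor proteins and insulin receptor substrates, separated iBET from the DOT1L and MENIN inhibitors in the same direction as Socs2. It had 42.5 and 53.9 CPM with DMSO and 49.2 and 49.1 CPM with MM-401. The values were 36.8 and 31.4 CPM with EPZ5676, 36.9 and 38.2 CPM with MI-2-2 and 71.2 and 62.1 CPM with iBET. DMSO and MM-401 lay between the EPZ5676 and MI-2-2 libraries on one side and the iBET libraries on the other, with no overlap. Socs7 was 1.95-fold lower with EPZ5676 than with iBET (log2 fold change -0.97 ± 0.15 SE, edgeR adjusted p = 0.00252) and 1.77-fold lower with MI-2-2 than with iBET (-0.83 ± 0.15, 0.00486). Socs7 fell by 0.50 with EPZ5676 against DMSO (SE 0.15, edgeR adjusted p = 0.0347) and by 0.53 against MM-401 (0.0315). With MI-2-2 the value against DMSO was -0.36 ± 0.15 (edgeR adjusted p = 0.092), which passed without DMSO replicate 1 (-0.52) and with library totals (-0.50, edgeR adjusted p = 0.0289). With iBET it was 0.47 ± 0.15 (edgeR adjusted p = 0.0765), which passed without DMSO replicate 2 (0.65, 0.0248).
Of the leave-one-out fits, the fall of Socs7 with EPZ5676 against DMSO passed in that without DMSO replicate 1 (-0.66, edgeR adjusted p = 0.0068) and in no other. The value was -0.29 (edgeR adjusted p = 0.163) without DMSO replicate 2 and -0.38 (0.174) without EPZ5676 replicate 2. The fall against MM-401 passed in 3 of the 10 such fits, those without a DMSO library or without iBET replicate 2. With the size factors of DESeq2 in the edgeR fit the call against DMSO was lost at a log2 change of -0.46.

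Socs5, which acts on the epidermal growth factor and interleukin-4 receptors, was highest with MI-2-2. It had 11.0 and 13.7 CPM with DMSO, 9.68 and 10.2 CPM with MM-401, 14.6 and 14.2 CPM with EPZ5676, 16.4 and 19.9 CPM with MI-2-2, and 15.5 and 13.9 CPM with iBET. MI-2-2 overlapped none of the other conditions, yet Socs5 was not called between MI-2-2 and EPZ5676 (edgeR adjusted p = 0.806) or iBET (0.222). Socs5 rose by 0.56 ± 0.19 (SE) on the log2 scale with MI-2-2 over DMSO (edgeR adjusted p = 0.0424) and by 0.87 ± 0.19 over MM-401 (0.00966). The value over DMSO was 0.41 (edgeR adjusted p = 0.0992) without DMSO replicate 1 and 0.76 (0.018) without DMSO replicate 2, the single leave-one-out fit in which it passed. The rise over MM-401 was lost without either MM-401 library (0.84 and 0.91) or MI-2-2 replicate 2 (0.73), at edgeR adjusted p from 0.0636 to 0.0723. Scaling by library totals alone gave 0.41 against DMSO, which did not pass. Over MM-401, Socs5 was also at 0.54 with EPZ5676 (edgeR adjusted p = 0.0587) and 0.57 with iBET (0.0912), neither past the threshold.

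Socs4 and Socs6 were the least variable members. Socs4, an inhibitor of epidermal growth factor receptor signaling, lay between 38.8 and 48.0 CPM in all 10 libraries. Socs6, which binds the KIT receptor, lay between 23.8 and 32.2 CPM. All conditions but MM-401 overlapped DMSO for Socs6. Their condition means spanned 0.17 and 0.27 on the log2 scale, against 2.05 for Socs2 and 1.59 for Cish. Neither passed in any of the 10 comparisons or in any alternative, and the sign of their small values against DMSO changed in at least 1 alternative for each of EPZ5676, MI-2-2 and iBET.

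**Figure D4:**
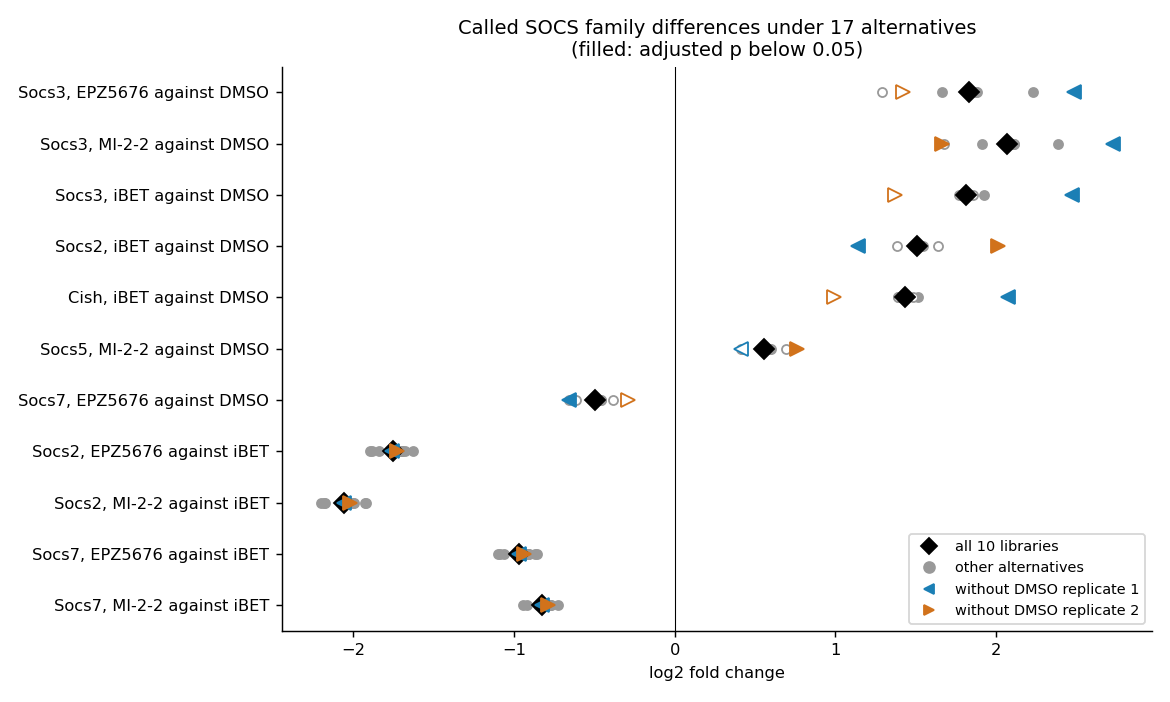
Log2 fold changes of 11 member differences that edgeR called, over all 10 libraries (diamonds) and under 17 alternatives, with the fits that omit a DMSO library as triangles; filled points have an adjusted p below 0.05. The 4 differences between iBET and EPZ5676 or MI-2-2 stay filled throughout, and those against DMSO spread with the DMSO library left out.

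Replicate number moved with several members. Cish, Socs1 and Socs3 were higher in replicate 1 than in replicate 2 in all 5 conditions, and Socs2 and Socs6 were higher in replicate 2 in all 5. The share of all genes with 1 direction in all 5 conditions was not counted, so this is not shown to be particular to the members. Over all tested genes, the gaps between replicates correlated at 0.28 to 0.67 between conditions. The log2 gaps from replicate 1 to replicate 2 were -0.10 to -1.08 for Cish, -0.08 to -1.09 for Socs3 and 0.17 to 0.88 for Socs2, beside medians over all genes of -0.01 to 0.03. For Cish, Socs2 and Socs3 the gap was widest in DMSO. 

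The receptor and kinases that the family acts on were described from a list of 14 genes. With EPZ5676 7 of them rose and 1 fell against DMSO, with MI-2-2 8 rose and 1 fell, and with iBET 5 rose (medians of 0.48, 0.66 and 0.24 on the log2 scale, beside -0.06, -0.05 and -0.04 over all genes). Of all tested genes, 18.7% were higher and 19.4% lower with EPZ5676, 20.2% and 21.2% with MI-2-2, and 6.38% and 7.54% with iBET. MM-401 gave 0 called of 14 in edgeR, with 2 at an unadjusted p under 0.05 (Csf2rb2 and Stat5b) and 0 called by DESeq2. Jak2, the kinase of the IL-3 receptor, had 52.6 and 55.2 CPM with DMSO, 152 and 131 CPM with EPZ5676, 161 and 150 CPM with MI-2-2 and 74.4 and 85.5 CPM with iBET. It rose by 1.39, 1.53 and 0.57 on the log2 scale (edgeR adjusted p = 0.00063, 0.000533 and 0.0314), the iBET value in 10 of the 17 alternatives. The shared receptor chain Csf2rb rose with all 3, by 1.04 on the log2 scale with iBET (edgeR adjusted p = 0.00847, 0.00638 and 0.0234 for EPZ5676, MI-2-2 and iBET), and the iBET call was lost without DMSO replicate 2 (0.84, edgeR adjusted p = 0.0515). Its IL-3 specific paralog Csf2rb2 rose by 1.76, 2.10 and 0.85 (edgeR adjusted p = 0.00063, 0.000407 and 0.0187). These paralogs are close copies, and how reads matching both were counted is not given in the sources used here.
Il3ra, the ligand-binding chain, had 74.2 and 26.3 CPM in the DMSO libraries and 43.7 to 64.4 CPM in the other 8, and was not called. Its log2 change over DMSO passed without DMSO replicate 1 (log2 changes of 1.05, 1.09 and 1.01 under EPZ5676, MI-2-2 and iBET, edgeR adjusted p = 0.00997, 0.00771 and 0.0213) and was negative without DMSO replicate 2 (-0.43, -0.38 and -0.49). Stat5a, which with Stat5b is known to switch on Cish and Socs2, fell by 0.71 with EPZ5676 (edgeR adjusted p = 0.00319) and by 0.52 with MI-2-2 (0.0103), and was -0.15 with iBET (0.402). Stat5b was at 0.04, 0.24 and 0.07 over DMSO and did not pass with all libraries. The MI-2-2 value passed in 2 of the 17 alternatives, 1 of them without DMSO replicate 1 (0.37). Over MM-401, Stat5b rose by 0.56 with MI-2-2 (edgeR adjusted p = 0.011). It was at 0.36 with EPZ5676 (edgeR adjusted p = 0.0568) and 0.39 with iBET (0.0858) there, neither past the threshold. Stat6, of interleukin-4 signaling, rose over DMSO with EPZ5676 and MI-2-2 (edgeR adjusted p = 0.00103 and 0.00117).

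**Figure D5:**
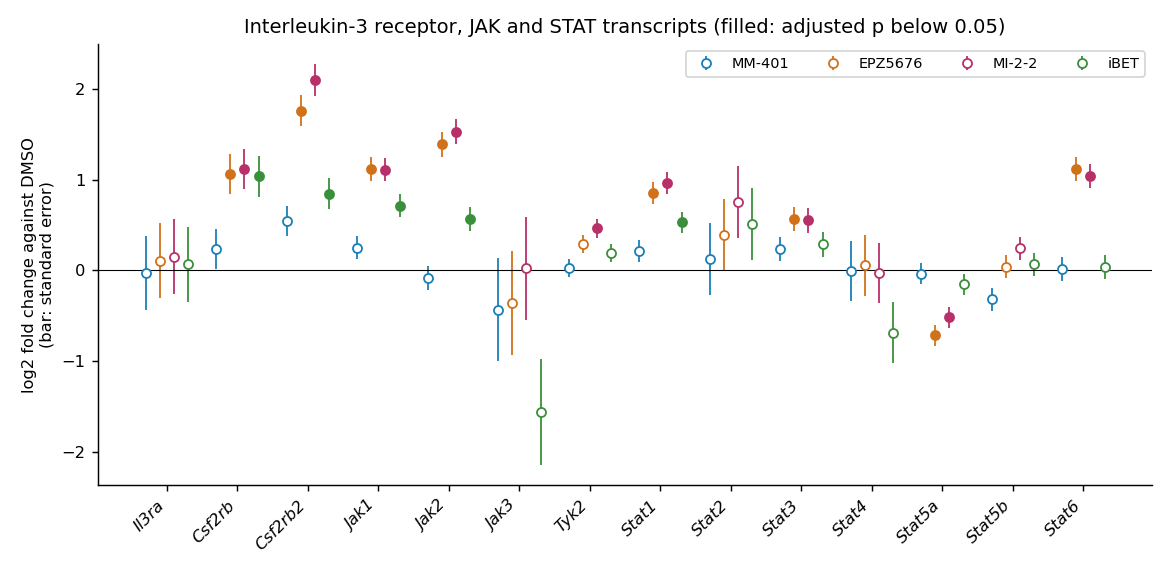
Log2 fold changes over DMSO, with standard errors, of the 14 genes of the IL-3 receptor, JAK and STAT list; filled points have an edgeR adjusted p below 0.05. Csf2rb2 and Jak2 rise most with EPZ5676 and MI-2-2, Stat5a falls with both, and no MM-401 point is filled.

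Among 23 other receptors that SOCS proteins act on, 17 were tested. Of these 8 rose and 1 fell with EPZ5676, 9 rose and 1 fell with MI-2-2, and 7 rose and 1 fell with iBET (38.1%, 41.4% and 13.9% of all genes called in either direction). Csf3r, the receptor of granulocyte colony-stimulating factor that SOCS3 inhibits, rose by 2.60 with EPZ5676 and 2.97 with MI-2-2 (edgeR adjusted p = 0.000824 and 0.000611) and was at -0.87 with iBET (0.0737), which passed without DMSO replicate 2 (-1.19, 0.0142). Ifngr1, a chain of the interferon-γ receptor that SOCS1 restrains, fell by 1.24 and 0.91 with EPZ5676 and MI-2-2 (edgeR adjusted p = 0.000868 and 0.00219) and was at 0.35 with iBET (0.12), which passed without DMSO replicate 2 (0.52, 0.021). Il4ra rose with all 3, from 74.6 and 81.4 CPM in DMSO to 105 to 143 CPM. With MM-401, Csf3r was at 0.62 over DMSO with all libraries, 1.05 without DMSO replicate 1 and 0.28 without DMSO replicate 2. It was not called with all libraries and passed in 1 of the 17 alternatives, the fit without DMSO replicate 1.
Of 8 STAT5 targets outside the family, 2 rose and 1 fell with EPZ5676, 3 rose and 1 fell with MI-2-2, and 1 rose with iBET, beside 38.1%, 41.4% and 13.9% of all genes called. Bcl6, a transcriptional repressor that STAT5 is known to hold down in other cells, had 0.584 and 0.527 CPM with DMSO, 15.8 and 15.8 CPM with EPZ5676, 17.1 and 25.1 CPM with MI-2-2, and 0.84 and 0.727 CPM with iBET. Bcl2l1, a survival gene, rose by 0.76 with EPZ5676 and 1.05 with MI-2-2 (edgeR adjusted p = 0.00721 and 0.00197). With MM-401, Bcl2l1 was at 0.27 over DMSO with all libraries, 0.53 without DMSO replicate 1 and 0.04 without DMSO replicate 2. That difference was not called with all libraries and passed in 1 of the 17 alternatives, the fit without DMSO replicate 1. Il2ra, the interleukin-2 receptor alpha chain, had 0.701 and 0.815 CPM with DMSO and fell to 0.188 to 0.347 CPM with EPZ5676 and MI-2-2 (edgeR adjusted p = 0.0312 and 0.0404). Both calls held in 5 of the 17 alternatives and were lost without DMSO replicate 2 (edgeR adjusted p = 0.0738 and 0.0987).
Of 12 other negative regulators of JAK and STAT signaling, 7 rose and 1 fell with EPZ5676, 7 rose and 1 fell with MI-2-2, and 3 rose with iBET, where 38.1%, 41.4% and 13.9% of all genes were called. Pias3, an inhibitor of STAT3, rose by 1.09, 1.38 and 1.61 with EPZ5676, MI-2-2 and iBET treatment (edgeR adjusted p = 0.00255, 0.00109 and 0.00299). Ptprc, the phosphatase CD45, rose by 0.86 and 1.02 with EPZ5676 and MI-2-2 (edgeR adjusted p = 0.00277 and 0.00143) and was at -0.07 with iBET, and Cbl, a ubiquitin ligase, lay at 253 to 295 CPM with EPZ5676 and MI-2-2 against 153 and 161 CPM in DMSO.
Of the 9 partners of the SOCS box in its ubiquitin ligase, 1 fell with EPZ5676, 3 fell with MI-2-2 and 0 were called with iBET in edgeR, where 1 (Tceb2) had an unadjusted p under 0.05 and DESeq2 called 0 (38.1%, 41.4% and 13.9% of all genes called). Cul2, a cullin scaffold, fell by 0.54 with EPZ5676 and 0.48 with MI-2-2 (edgeR adjusted p = 0.0178 and 0.0251). Without DMSO replicate 1 these values were -0.36 (edgeR adjusted p = 0.0423) and -0.30 (0.0745), so that the MI-2-2 call was lost, and without DMSO replicate 2 the iBET value passed (-0.44, 0.0322). Tceb2 and Rbx1, an elongin and a RING subunit, did not pass for any inhibitor against DMSO. Over the 5 conditions Cul2 passed (edgeR adjusted p = 0.0343), and Cul5, the other cullin of the list, did not (0.208). Of 24 other SOCS-box genes 15 were tested, and 3 rose and 1 fell with EPZ5676, 4 rose with MI-2-2, and 1 rose and 2 fell with iBET, beside the same shares of all genes. Spsb2 rose by 1.63 with EPZ5676 (edgeR adjusted p = 0.00304) and passed with iBET when DMSO replicate 1 was left out (1.14, 0.0156, against 0.76 and 0.0895 with all libraries). With MI-2-2, Spsb2 rose by 1.60 (edgeR adjusted p = 0.0030). Asb7 rose by 0.81 with EPZ5676 and by 0.92 with MI-2-2 (edgeR adjusted p = 0.00361 and 0.0021). Asb4 had no read in either iBET library, 1.48 and 0.911 CPM with DMSO and 3.82 and 5.08 CPM with MI-2-2. It was called against DMSO with iBET and with MI-2-2 (edgeR adjusted p = 0.0039 and 0.0091).

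Levels of cell type markers differed between the conditions as well. The summed level of the 10 myeloid and progenitor markers was 2080 to 2510 CPM with iBET, 5080 to 6060 CPM with EPZ5676 and MI-2-2, and 6350 to 10700 CPM with DMSO and MM-401. A few abundant genes carry this sum, so it does not show how each gene moved. Over the libraries Mpo ranged from 14.6 to 4820 CPM, Elane from 376 to 4200 CPM and Itgam from 265 to 2730 CPM. Ptprc of the same list was higher with EPZ5676 and MI-2-2 than with DMSO, as given above. The iBET libraries, in which Socs2, Socs7 and Cish were highest, were thus also lowest in this sum. The 6 mast cell and basophil markers summed to 15.7 and 16.0 CPM with iBET, 11.6 to 12.9 CPM with DMSO and MM-401 and 3.54 to 5.44 CPM with EPZ5676 and MI-2-2, with 3 of the 6 at 0 in all libraries. The part of either list in the results on the members was not tested.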

How the data were processed

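RNA from MAF9 cells (5 conditions, 2 libraries each) was sequenced after TruSeq library preparation. The authors deposited whole-number read counts per gene symbol, without normalization. The submitters' processing notes name TopHat2, Subread, DESeq and mm9, without versions or roles. The model the authors used is not given in the sources used here. Samples were grouped by their labels.

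Counts were fitted with edgeR 4.0.16 in R 4.3.3 (filterByExpr, TMM, glmQLFit, glmQLFTest) in 1 model of 10 libraries with condition only. The filter kept 12971 of 24015 genes. P-values were adjusted by Benjamini-Hochberg within each comparison over all of them, at a threshold of 0.05. The SE is the log2 fold change divided by the square root of F. The fit was tested on simulated data. RPKM used library totals and joined exon lengths of GENCODE M21 (GRCm38), another build than the files'. No coordinate was converted. The promoter entries come from RefSeq.

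The members and gene lists were chosen with earlier results of these data known. By rule the text names all members, 6 IL-3 pathway genes, up to 3 genes per list with the smallest p over the 5 conditions, and the 3 genes most correlated with each of the 3 members of widest range. The other list genes are only counted, except Cul5. Alternatives were scaling by library totals, size factors or test of DESeq2 1.42.0, no or a stricter filter (1 CPM in 2 libraries), a replicate block, only the groups compared, and each library left out.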

Additional observations from a re-analysis of the deposited data

How the results depend on the processing

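No member reversed direction past the threshold in any of the 17 alternatives, and the 4 differences of Socs2 and Socs7 between iBET and EPZ5676 or MI-2-2 passed in all of them. The other 15 calls were lost in at least 1 alternative. All 19 calls rest on 2 libraries per group, and the alternatives refit the same 10 libraries. Leaving out a library of a group that is not compared also changed calls, since all 10 libraries share the estimate of spread. Socs3 had the lowest count of the members, 91 reads in DMSO replicate 2 against 239 in DMSO replicate 1. The part of depth in its spread was not tested.

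The number of members called against DMSO under EPZ5676, MI-2-2 and iBET was 2, 2 and 3 (38.1%, 41.4% and 13.9% of all genes). With only the groups compared in the fit it was 0, 0 and 0, where 9.34%, 9.12% and 0.0% of all genes were called. DESeq2 size factors gave 1 for EPZ5676 (37.4% of all genes), the DESeq2 test gave 4 for MI-2-2 (43.3%), and library totals gave 1 for iBET (13.8%). An unchanged count can hide a change of members. With library totals, MI-2-2 lost Socs5 (0.41, edgeR adjusted p = 0.094) and gained Socs7 downward (-0.50, 0.0289). Against MM-401, only the groups compared gave 4, 5 and 5 in place of 2, 3 and 3. There 45.6%, 51.4% and 35.0% of all genes were called, in place of 33.3%, 35.7% and 11.4%. Leaving out 1 library gave 0 to 4 (EPZ5676), 0 to 5 (MI-2-2) and 0 to 3 (iBET) against DMSO, 0 to 4, 0 to 4 and 0 to 5 against MM-401, 3 to 5 over the 5 conditions and 2 to 5 over the 4 inhibitors. MM-401 against DMSO and EPZ5676 against MI-2-2 gave 0 members in every alternative. Library totals moved the median log2 change of all genes over DMSO from -0.06 to -0.23 with EPZ5676 and from -0.05 to -0.20 with MI-2-2. In the order per length, TMM-scaled sizes put Socs3 at rank 2 and Socs7 at rank 3, and the longest transcript put Socs3 at 2, Socs7 at 3, Socs6 at 5 and Socs1 at 6. The cause of these moves was not tested.

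Replicate numbers are shared between conditions. The deviations of same-numbered libraries correlated at 0.28 to 0.67 between conditions, but each comparison holds 2 numbers and nothing in the labels ties a number to a batch, so the numbers were not taken to pair the libraries. With a replicate block, 4 members passed for EPZ5676 and 4 for MI-2-2 over DMSO, and 5 for EPZ5676 over MM-401. Of all genes, 47.6%, 50.6% and 43.4% passed in those comparisons. Over DMSO, Socs1 and Cish were the members that passed with the block and not without it, for both EPZ5676 and MI-2-2.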
